A study of Mus musculus with 6 samples.

Results

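The small leucine-rich proteoglycans are secreted matrix proteins with a core of leucine-rich repeats, and the 10 genes taken here were Lum, Dcn, Bgn, Fmod, Ogn, Omd, Prelp, Aspn, Kera and Epyc. They were chosen by gene name, as the family of Lum (lumican), whose difference in these same libraries was already known. Of the 10, 9 had a row among the 20173 genes of the count table, and 8 passed the filter on low counts that left 12152 genes for testing. Kera (keratocan, a corneal proteoglycan) was not analysed here. The question was whether Lum differed alone or with its relatives between primary sympathetic neuron cultures with and without Slit2.

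RNA-Seq covered 3 Slit2fl/fl cultures, called controls here, and 3 Slit2th cultures. The mice were male and 3 weeks old, and the cells of their sympathetic chains were kept for 4 to 5 days in medium with the B27 supplement. Mice of both groups carried floxed Slit2 alleles, and Slit2th mice also carried Cre recombinase under the Th (tyrosine hydroxylase) promoter, so the deletion was limited to cells that had used that promoter. The labels give sympathetic ganglion as the tissue and neuron as the cell type, while the study's isolation step speaks of dorsal root neurons. Whether a culture came from 1 mouse or from several is not stated, so the tests below measure the spread between these cultures.

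Within this family, members bind fibrillar collagens and set the width and spacing of the fibrils, and several also bind transforming growth factor β or innate immune receptors. Most carry chondroitin, dermatan or keratan sulfate chains on the core protein, although Aspn lacks such a chain. In peripheral nerve they are known mainly as products of the fibroblasts and connective tissue sheaths rather than of neurons.

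Total counts were 1533367 to 3155406 per control library and 1255939 to 1999485 per Slit2th library, so that a floor of 3 counts stood at 0.959 to 2.64 CPM (counts scaled to library size with TMM factors); this floor covers counting error only. Slit2 had 44.4, 55.0 and 43.7 CPM in control replicates 1, 2 and 3 against 15.0, 11.4 and 15.2 CPM in Slit2th, the direction that the labels give (log2 fold change -1.78, standard error 0.37, adjusted p = 0.423, edgeR). Replicate 1 of each group stood apart, with a Pearson correlation of log2 CPM across genes of 0.842 to 0.869 with the other libraries of its own group, against 0.938 and 0.965 between replicates 2 and 3. Results are therefore also given without replicate 1 of both groups, which leaves only replicates 2 and 3 of each. Th had 0 counts in every library, and the 20 counted sympathetic neuron markers summed to 179 to 586 CPM, whereas 17 glia markers summed to 6514 to 21241 CPM and 22 fibroblast markers to 2836 to 3751 CPM. Levels are therefore those of mixed cultures, in which more cells of a type and more RNA per cell cannot be told apart.

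The genes lie in clusters. By GENCODE M21 (GRCm38), Dcn (ENSMUSG00000019929, chr10:97479609-97518143), Lum (ENSMUSG00000036446, chr10:97565128-97572703), Kera and Epyc (ENSMUSG00000019936, chr10:97644068-97682454) follow each other on the plus strand, with 46984 bases between Dcn and Lum. Aspn (ENSMUSG00000021388, chr13:49544443-49567565), Omd (ENSMUSG00000048368, chr13:49582462-49592822) and Ogn (ENSMUSG00000021390, chr13:49608046-49624501) form a second cluster, 14896 and 15223 bases apart. Prelp (ENSMUSG00000041577, chr1:133910304-133921414) and Fmod (ENSMUSG00000041559, chr1:134037254-134048277) share chromosome 1, and Bgn (ENSMUSG00000031375, chrX:73483602-73495933) lies alone on the X chromosome. The exons of Lum, Dcn, Ogn, Bgn, Omd and Fmod overlap no other annotated gene. Those of Prelp, Aspn and Epyc overlap Gm15851, Cenpp and Gm10754 on the opposite strand, and the strand setting of the counting is not given in the sources used here.

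Promoters from RefSeq (GRCm38.p6), covering 250 bases before to 50 bases after the start of transcription, were matched by symbol for 8 members, not for Lum and Dcn. Those of Ogn and Bgn are shown because they are the most abundant members with an entry and differ in base composition. Fold changes were not compared with the composition of promoters. Capitals mark each CG dinucleotide.
Ogn promoter, plus strand, chr13:49607765-49608064: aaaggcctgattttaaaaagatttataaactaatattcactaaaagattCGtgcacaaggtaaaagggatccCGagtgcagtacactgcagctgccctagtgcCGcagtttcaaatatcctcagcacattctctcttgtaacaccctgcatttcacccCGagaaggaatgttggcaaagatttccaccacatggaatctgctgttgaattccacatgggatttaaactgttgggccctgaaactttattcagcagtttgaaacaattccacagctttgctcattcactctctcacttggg
Bgn promoter, plus strand, chrX:73483351-73483650: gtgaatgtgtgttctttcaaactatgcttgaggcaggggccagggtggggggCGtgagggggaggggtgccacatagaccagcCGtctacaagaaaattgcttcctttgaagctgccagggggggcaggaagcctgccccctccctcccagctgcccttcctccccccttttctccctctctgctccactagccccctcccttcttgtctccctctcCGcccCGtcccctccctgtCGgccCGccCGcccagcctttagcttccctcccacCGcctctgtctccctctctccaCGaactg
The Ogn stretch held 4 CG dinucleotides at a GC content of 42.3%, and the Bgn stretch held 9 at 63.7%. Over the 32851 promoters of this length the medians were 7 and 52.7%. The letters TATAAA, searched on both strands, were in the Ogn stretch and not in the Bgn stretch, and 13.6% of all promoters of this length held them.

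Ogn (osteoglycin, also called mimecan) was the most abundant member, followed by Dcn (decorin), in which a single chondroitin or dermatan sulfate chain hangs from a collagen-binding core. Per kilobase of merged exon and averaged over the 6 libraries, the levels were 429 CPM for Ogn, 91.4 for Dcn, 54.6 for Lum, 2.54 for Aspn, 1.55 for Prelp and 0.976 for Omd, and Bgn lay between Lum and Aspn at 10.2 in controls and 9.85 in Slit2th. Fmod (fibromodulin, a tendon proteoglycan) and Epyc (epiphycan, of epiphyseal cartilage) were at the limit of counting. Fmod had 1 count, in Slit2fl/fl replicate 2, and Epyc had 1, 1 and 2 counts in controls and 0, 3 and 2 in Slit2th, so no fold change is given for either. In controls, Lum (19.7 ± 11.8 CPM per kilobase, SD, n = 3) and Bgn (10.2 ± 7.13) did not differ beyond their spread, since their ranges overlapped. In Slit2th, Lum (89.5 ± 18.1, SD, n = 3) came close to Dcn (111 ± 33.9) on this scale, and their ranges overlapped. Merged exons join all annotated transcripts of a gene, 5838 bases for Dcn, 2448 for Lum and 6099 for Bgn. Which transcripts these cultures used was not determined, so comparisons between genes depend on this length. In CPM not divided by length, Dcn had 467 to 860 and Lum 185 to 269 in Slit2th, without overlap.

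Lum, whose product carries keratan sulfate in the cornea and keeps collagen fibrils evenly spaced there, had the largest difference among the members. It stood at 16.3, 72.5 and 56.2 CPM in control replicates 1, 2 and 3 and at 202, 185 and 269 CPM in the Slit2th replicates. The 2 groups did not overlap, and the means differed by 4.53-fold. The log2 fold change was 2.19 (standard error 0.53, 95% interval 0.99 to 3.38), with an unadjusted p of 0.00249, rank 55 among the tested genes, and an adjusted p of 0.423 by edgeR's quasi-likelihood test. Without replicate 1 of both groups, the libraries that stood apart, it was 1.81 (adjusted p = 9.77e-04, edgeR). Without replicate 2 or replicate 3 of both groups the adjusted p was 0.618 and 0.821 by the same test. With all libraries in DESeq2 the log2 fold change was 2.22 (adjusted p = 0.0349). Over the 19 alternatives the adjusted p of Lum ranged from 9.77e-04 to 0.821 (edgeR, limma and DESeq2). Since the family was chosen with the difference of Lum known, that difference is a description and not independent evidence.

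**Figure D1:**
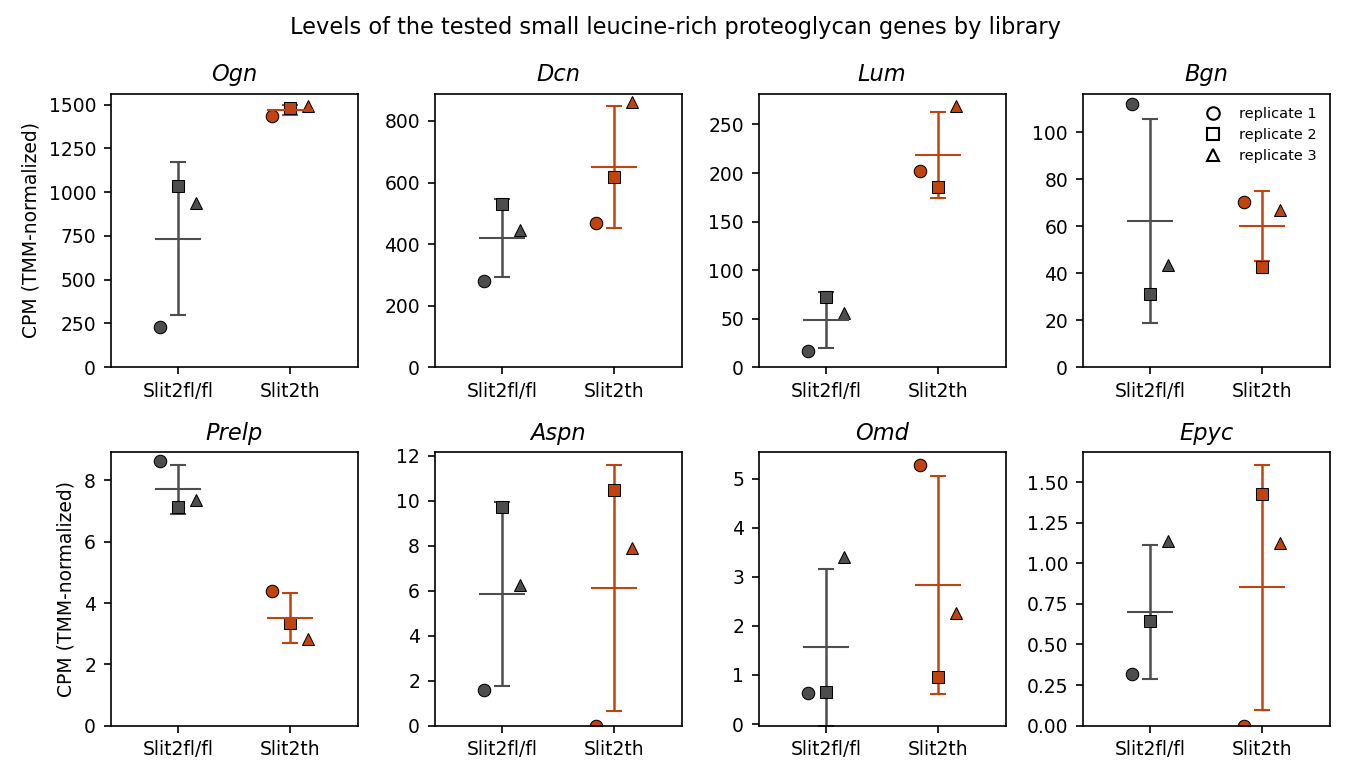
TMM-normalized CPM (linear y axis, a separate scale per gene) of the 8 tested members in each library, grouped as Slit2fl/fl (gray) and Slit2th (orange); symbols give the replicate number, and bars give the mean and SD of 3 libraries. The Slit2th libraries lie above all Slit2fl/fl libraries for Ogn and Lum and below them for Prelp, while the groups overlap for the other genes.

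Ogn was also higher in every Slit2th library, by a smaller factor. Control replicates 1, 2 and 3 had 232, 1033 and 935 CPM, and the Slit2th replicates had 1434, 1483 and 1490.0 CPM. The Slit2th libraries were close to each other, and the spread of the control group came from replicate 1. The group means differed by 2.0-fold, and the log2 fold change was 1.0 (standard error 0.52, 95% interval -0.16 to 2.17, adjusted p = 0.495, edgeR). Without replicate 1 of both groups it was 0.58 (adjusted p = 0.0783, edgeR), and without Slit2fl/fl replicate 1 alone it was 0.58 (adjusted p = 0.656), within a range of 0.0783 to 0.851 for the adjusted p of Ogn over the alternatives (edgeR, limma and DESeq2).

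Dcn was at 281, 530.5 and 444 CPM in control replicates 1, 2 and 3 and at 467, 619 and 860.2 CPM in the Slit2th replicates. Slit2th was higher in each same-numbered pair, but Slit2th replicate 1 lay below Slit2fl/fl replicate 2, so the groups overlapped. The log2 fold change was 0.63 (standard error 0.38, 95% interval -0.23 to 1.50, adjusted p = 0.538, edgeR), and it was 0.59 without replicate 1 of both groups and 0.38 without Slit2th replicate 3.

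Bgn (biglycan), the closest relative of Dcn and a ligand of Toll-like receptors, did not share the pattern. Control replicates 1, 2 and 3 had 112, 31.1 and 43.7 CPM, and the Slit2th replicates had 70.4, 42.9 and 67.0 CPM. Slit2fl/fl replicate 1 was the highest of the 6 libraries for Bgn, whereas it was the lowest for Lum, Ogn and Dcn. The log2 fold change was -0.060 (standard error 0.51, 95% interval -1.21 to 1.09, adjusted p = 0.967, edgeR) and turned to 0.69 without Slit2fl/fl replicate 1.

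Prelp, a proteoglycan of basement membranes that binds heparan sulfate, differed in the other direction. Its levels of 8.63, 7.12 and 7.38 CPM in control replicates 1, 2 and 3 rested on 11 to 27 counts, and those of 4.40, 3.33 and 2.82 CPM in the Slit2th replicates on 5 to 7 counts. The groups did not overlap. The log2 fold change was -1.15 (standard error 0.53, 95% interval -2.33 to 0.04, adjusted p = 0.473, edgeR).

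Aspn (asporin, an inhibitor of transforming growth factor β) had 5, 15 and 11 counts in control replicates 1, 2 and 3 and 0, 22 and 14 in the Slit2th replicates. Omd (osteomodulin, an acidic protein of mineralized matrix) had 2, 1 and 6 counts in controls and 6, 2 and 4 in Slit2th. At this depth no difference was detectable for either gene: the 95% intervals of the log2 fold change were -2.01 to 2.38 for Aspn and -1.41 to 2.99 for Omd.

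Over all 12152 genes, 0 (0.0%) had an adjusted p under 0.05 by edgeR's quasi-likelihood test, 0 by limma-voom and 34 by DESeq2, against 378 in edgeR without replicate 1 of both groups. At an unadjusted p under 0.05 there were 1308 genes (10.8%), of which 484 (3.98%) were higher and 824 (6.78%) were lower in Slit2th. By that threshold 1 of the 8 tested members was called, Lum, which is close to the share of all genes. Without replicate 1 of both groups there were 3, Lum, Ogn and Dcn, where 17.4% of all genes tested in that fit were called (3.29% after adjustment). The Slit2th libraries all lay above the controls for 2 members (Lum and Ogn) and for 8.72% of tested genes, and all lay below them for 1 member (Prelp) and 9.73% of tested genes. The median log2 fold change was 0.56 over the 8 tested members and -0.05 over all tested genes. Nothing particular to the family was read from these shares.

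**Figure D2:**
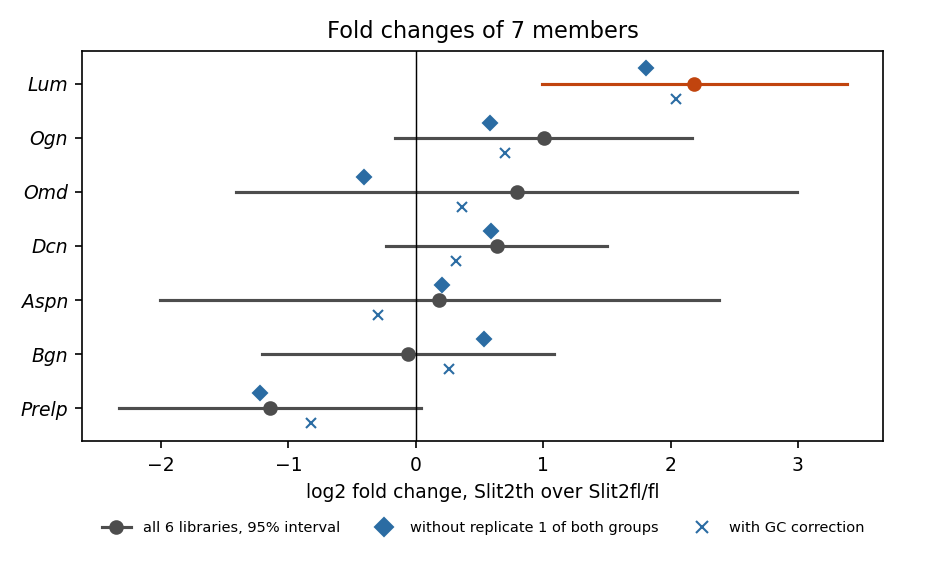
Log2 fold change (x axis, Slit2th over Slit2fl/fl) of the 7 members with more than 3 counts in a library; points and lines give edgeR's estimate and its 95% interval with all 6 libraries, diamonds the estimate without replicate 1 of both groups, and crosses the estimate after correction for GC content. The interval of Lum (0.99 to 3.38) lies above 0, and those of the other genes include 0.

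A ratio of counts within a library does not depend on the scaling between libraries, so Lum was set against each of the 7 other tested members in this way (0.5 added to each count). The log2 ratio of Lum to Dcn was -4.09, -2.87 and -2.98 in control replicates 1, 2 and 3 against -1.21, -1.74 and -1.67 in the Slit2th replicates. The groups did not overlap, and Lum gained 1.77 on Dcn on the log2 scale (p = 0.10 by an exact permutation test, two-sided, which cannot go lower with 3 libraries against 3). Lum to Ogn was -3.82, -3.83 and -4.05 in controls and -2.82, -3.00 and -2.47 in Slit2th, a difference of 1.14 (exact permutation test, p = 0.10). The ratio to Ogn was thus nearly level among the controls, replicate 1 included, although both genes were low in that library.

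Lum to Bgn differed by 2.27 and Lum to Prelp by 3.48 on the log2 scale, with no overlap between the groups (exact permutation test, p = 0.10 for each). Lum to Aspn differed by 2.94 and Lum to Epyc by 2.19 with the same p by the same exact permutation test, but these ratios rest on Slit2th libraries with 0 counts of Aspn or Epyc. Lum to Omd differed by 1.54, with overlap (exact permutation test, p = 0.20). Adjusted over the 7 pairs, p was 0.117 for 6 of them and 0.20 for Omd by these permutation tests, so no pair could pass a threshold of 0.05 in this design. The ratio was higher in Slit2th in each of the 3 same-numbered pairs of libraries for all 7 genes, which follows from the lack of overlap for all but Omd. All 7 ratios share Lum, whose difference was known when the family was chosen. They are therefore a description and not 7 independent results.

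**Figure D3:**
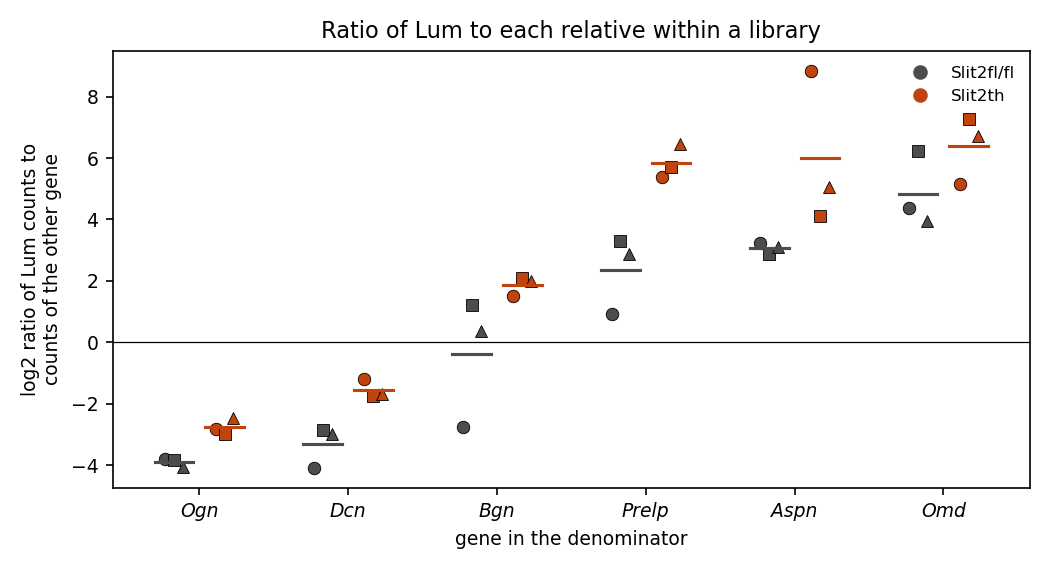
Log2 ratio of Lum counts to the counts of 6 relatives within each library (y axis, with 0 for equal counts); symbols give the replicate number (circle 1, square 2, triangle 3), gray is Slit2fl/fl, orange is Slit2th and lines are group means. The orange points lie above the gray points for each gene but Omd, with a mean difference from 1.14 for Ogn to 3.48 for Prelp.

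The share of reads on the family was a sum carried by its most abundant genes. The 9 counted members together held 0.0647%, 0.170% and 0.149% of the counts in controls and 0.198%, 0.246% and 0.285% in Slit2th replicates 1, 2 and 3. The 95% Wilson intervals, which cover counting error only, ran from 0.0619% to 0.0675% in the lowest library and from 0.277% to 0.294% in the highest. The groups did not overlap, and most of these reads came from Ogn and Dcn, whereas Bgn and Prelp had no positive log2 fold change. Ogn made up 35.5% of them in Slit2fl/fl replicate 1 and 55.2% to 65.7% in the other libraries. Lum made up 2.50%, 4.30% and 3.75% in controls and 9.27%, 7.90% and 9.97% in Slit2th, whereas Dcn went from 34.7 ± 7.28% to 26.5 ± 5.23% (SD, n = 3 each) with overlap.

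**Figure D4:**
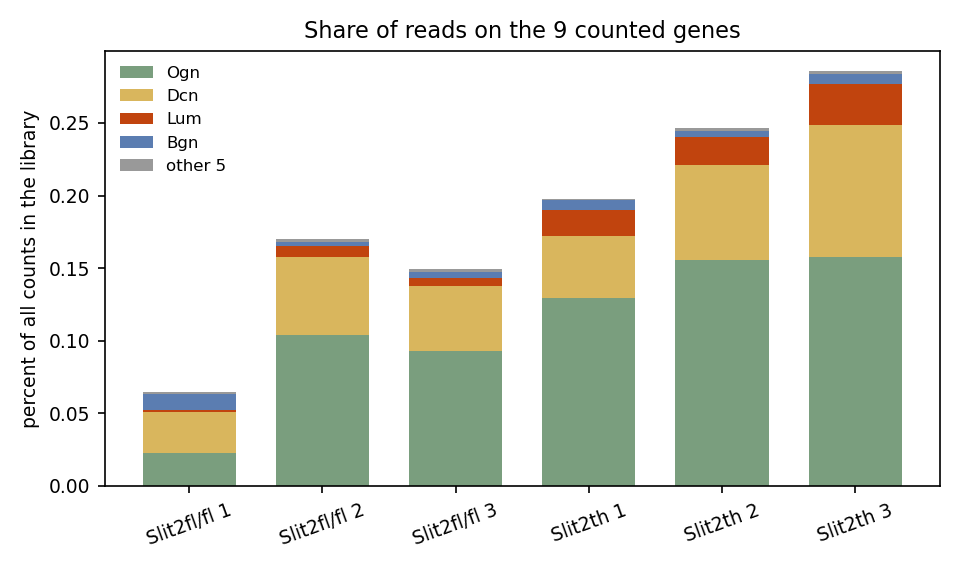
Percent of all counts in each library (y axis, from 0) that fell on the 9 counted members, stacked by gene. The total is between 0.0647% and 0.170% in the Slit2fl/fl libraries and between 0.198% and 0.285% in the Slit2th libraries, and the Lum segment is wider in each Slit2th library than in any Slit2fl/fl library.

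Fold changes in these libraries varied with the base composition of the transcripts. The median log2 fold change was 0.28 over the 3059 tested genes with a GC content under 45% and -0.38 over the 5573 genes with 50% or more. Lum (41.9%), Dcn (40.1%), Ogn (36.3%), Omd (35.6%) and Aspn (34.3%) are low in GC, whereas Bgn (52.1%) and Prelp (54.2%) are not. After each library was corrected for GC content, the log2 fold changes were 2.04 for Lum (adjusted p = 0.402, edgeR), 0.70 for Ogn, 0.32 for Dcn, 0.26 for Bgn and -0.83 for Prelp. Before the correction, the median over the 947 tested genes in the bin of GC content around 40.5%, which holds Lum and Dcn, was 0.32, against 2.19 for Lum and 0.63 for Dcn.

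**Figure D5:**
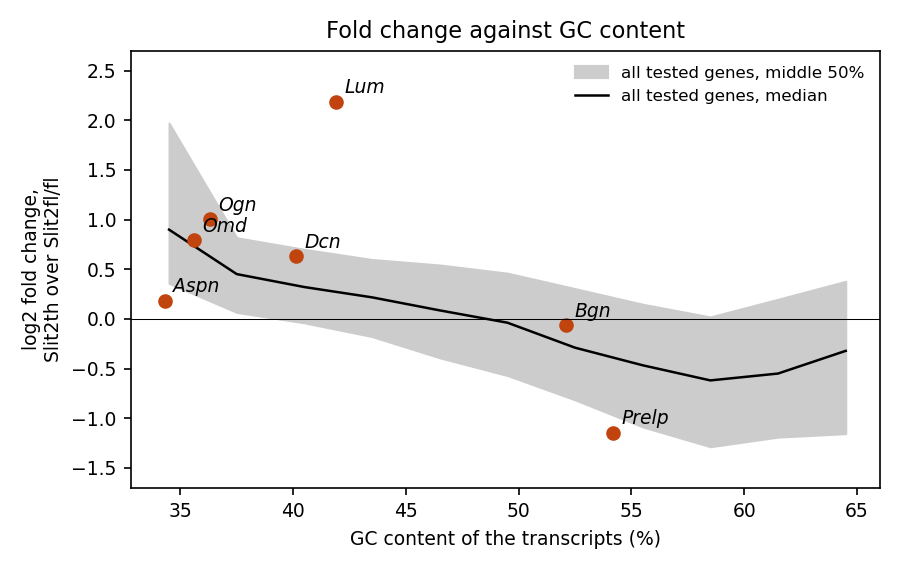
Log2 fold change (y axis, Slit2th over Slit2fl/fl) against the GC content of the transcripts (x axis, percent) for 7 members (points), over the median (line) and the middle 50% (gray band) of all tested genes in bins of GC content. The median falls from 0.90 in the lowest bin to -0.62 at 58.5%, and Lum, at 2.19, is above the band.

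The genes whose level across the 6 libraries was most like that of Lum were named by the mean absolute difference of centered log2 CPM, among 7477 other genes with a mean of at least 10 CPM. The nearest was Lox (0.178), whose product, lysyl oxidase, cross-links collagen, followed by Lca5 (0.258), a ciliary gene, the homeobox gene Shox2 (0.268), the cytokine gene Il33 (0.303) and Pigg (0.311), an enzyme of lipid anchor synthesis. Lox had 7.99, 30.4 and 27.2 CPM in control replicates 1, 2 and 3 and 73.0, 103 and 115 CPM in the Slit2th replicates. It was lowest in the same library as Lum, a likeness that comes with its choice by this measure and is not a separate result. Among the members, Ogn ranked 93, Dcn 972 and Bgn 4230 by this measure.

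A list of 12 genes held fibrillar collagens, the fibril-associated collagens Col12a1 and Col14a1, and Lox, which the family binds or lies beside on the fibril. Of these, 10 were tested and each had a positive log2 fold change, with a median of 0.55 against -0.05 over all tested genes. At an unadjusted p under 0.05 (3.98% of all tested genes higher, 6.78% lower), 3 were higher and 0 lower. They were Lox (log2 fold change 2.17, standard error 0.52), Col11a1, a minor chain of fibrils (1.69, standard error 0.49), and Col3a1, the chain of type III collagen (1.14, standard error 0.46), with adjusted p-values of 0.423 to 0.448 by edgeR. Col1a1 and Col1a2, the chains of type I collagen, named after their values were seen, had log2 fold changes of 0.29 and 0.42.

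The enzymes that build the sugar chains were counted as lists. Of 16 chondroitin and dermatan sulfate enzymes, 13 were tested, of which 10 had a positive log2 fold change (median 0.47). Among them 0 were higher and 1 was lower at an unadjusted p under 0.05, against 3.98% and 6.78% of all tested genes. The lower one, named after its value was seen, was the sulfotransferase Chst12 (-1.73, standard error 0.67). The uronyl sulfotransferase Ust, the most abundant of them, went from 44.2 ± 14.8 to 78.4 ± 10.6 CPM (SD, n = 3 each), with no overlap between the groups. Of the 9 keratan sulfate enzymes, 6 were tested and 0 were called in either direction, with a median log2 fold change of 0.08, and the most abundant, the galactosyltransferase B4galt1, was at 139.9 ± 62.6 and 138.0 ± 20.1 CPM. Of the 6 enzymes of the linker that joins chondroitin and dermatan sulfate chains to the core, 0 were called (median -0.12). The most abundant, the kinase Fam20b, was at 19.3 ± 6.46 and 12.0 ± 3.74 CPM.

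Of the 12 proteases and enhancers that process or cleave the family, 9 were tested (median log2 fold change -0.03). None of these was called at an unadjusted p under 0.05, as 10.8% of all tested genes were. The most abundant, the proteoglycan-cleaving protease Adamts5, was at 1292 ± 374 CPM in controls and 1910.4 ± 83.8 CPM in Slit2th (SD, n = 3 each), with no overlap. Among 18 receptors and growth factors that members bind, 14 were tested and 1 was called, Itga1, a collagen-binding integrin subunit (1.11, standard error 0.42). Among 7 other leucine-rich matrix genes 3 were tested and 0 were called, and Ecm2, the neighbor of Aspn, was at 4.74 ± 3.57 and 5.58 ± 5.69 CPM (SD, n = 3 each).

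Markers of the cells that these cultures could hold were summed in each library. The 22 counted fibroblast markers, none of which is a member, summed to 2836, 3145 and 3069 CPM in control replicates 1, 2 and 3 and to 3138, 3502 and 3751 CPM in the Slit2th replicates, with 0 counts of Dpp4. Most of this sum was Col1a2, at 1451 to 2569 CPM per library. S100a4 added 446, 250 and 719 CPM to it in control replicates 1, 2 and 3, and 159, 32.4 and 33.8 CPM in the Slit2th replicates. The sum thus includes a marker that was lower in Slit2th, and no sum without S100a4 was taken. Of 18 tested, 2 were higher and 1 was lower at an unadjusted p under 0.05, against 3.98% and 6.78% of all tested genes. The higher ones were Col3a1 and, named after its value was seen, Pdgfra, and the lower one was S100a4 (-2.66 on the log2 scale). The log2 ratio of Lum to this sum was -7.43, -5.43 and -5.76 in controls and -3.95, -4.24 and -3.80 in Slit2th, a difference of 2.21 (exact permutation test, p = 0.10). Ogn gained 1.08 without overlap and Dcn 0.44 with overlap on the same scale.

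The 15 macrophage markers summed to 132, 74.4 and 38.0 CPM in control replicates 1, 2 and 3 and to 716, 140.0 and 167 CPM in the Slit2th replicates. Of 12 tested, 7 were higher and 0 lower at an unadjusted p under 0.05, where 3.98% of all tested genes were higher and 6.78% lower. Some of these calls rest on few counts. Mrc1, Itgam and Ptprc, named after their values were seen, had 15, 15 and 14 counts over all libraries together. The protease gene Ctss had 13, 9 and 8 counts in controls and 52, 22 and 29 in Slit2th, without overlap. The complement gene C1qa had 10, 2 and 0 counts in controls and 84, 4 and 0 in Slit2th, so its call came from Slit2th replicate 1 and the groups overlapped. The 16 proliferation markers summed to 566 to 595 CPM in controls and 222 to 397 CPM in Slit2th, with 0 higher and 7 lower, led by the mitotic genes Ccnb2 and Birc5. The control mean of Ccnb2 was carried by replicate 1, at 120 CPM against 18.8 and 26.7 CPM in replicates 2 and 3. In the Slit2th replicates Ccnb2 had 8.80, 12.9 and 14.6 CPM. Of 6 tested perineurial markers, which summed to 128 to 224 CPM in controls and 95.9 to 125 CPM in Slit2th, 0 were higher and 2 were lower (Perp and Slc2a1). Perp had 13, 20 and 28 counts in controls and only 2, 7 and 3 in Slit2th, near the floor of 3 counts.

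For the next lists, calls are again at an unadjusted p under 0.05, where 3.98% of all tested genes were higher and 6.78% lower. Of the tendon, cartilage and bone markers, Scx, Col2a1 and Bglap had 0 counts. In this list 3 of 11 were tested and 1 was higher (Sox9, log2 fold change 1.26), with overlap between the groups. The sums of 796 to 1326 CPM in controls and 1115 to 1408 CPM in Slit2th came mostly from Runx2. Mural cell markers summed to 67.5 to 171 CPM in controls and 55.2 to 202 CPM in Slit2th, with 0 of 6 called, and the most abundant was Pdgfrb. Endothelial markers summed to 42.5 to 130.1 and 49.0 to 56.3 CPM, with 1 of 4 lower (Emcn). The groups overlapped for Emcn, at 26.5, 14.9 and 2.27 CPM in controls and 2.64, 5.24 and 1.69 CPM in Slit2th. Glia markers summed to 6514 to 12527 and 14499 to 21241 CPM, and the 1 called of 16 tested, the myelin gene Mbp, was lower. That call rested on control replicate 1, at 1049 CPM, since the other controls (106 and 116 CPM) lay within the Slit2th range of 88.0 to 138 CPM. Of the 6 tested sympathetic neuron markers 0 were called, and Tubb3 was the most abundant. The part of these cells in the levels of Lum and its relatives was not tested.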

How the data were processed

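The authors aligned reads of TruSeq libraries to mm10 with HISAT2 per the study's methods (GRCm39 is listed in the submitters' processing notes) and deposited raw read counts per gene, not normalized; the counting program and strand setting are not given in the sources used here. Of the 20173 gene identifiers, 20159 were found in GENCODE M21 (GRCm38), which gave positions, exon lengths and GC content. The filter kept genes that reached a CPM of 1 in 3 or more libraries. TMM factors scaled the libraries, and edgeR 4.0.16 (quasi-likelihood test, R 4.3.3) compared the groups without covariates, with Benjamini-Hochberg adjustment over all tested genes. The common biological coefficient of variation was 50.4%. DESeq2 1.42.0 and limma 3.58.1 (voom) were alternatives, and exact permutation tests of single values (SciPy 1.17.1) were two-sided. For the GC correction, a smooth of each library's log ratio on GC content was added to the offsets. The fits were tested on simulated data.

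The members and lists were chosen with earlier results of these data known. From each list the text names the 2 genes with the largest absolute log2 fold change among those with a mean of at least 5 CPM and an unadjusted p under 0.05, or else the most abundant gene, and the 5 genes most like Lum; others are marked, are markers at 0 counts or make up most of a sum.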

Additional observations from a re-analysis of the deposited data

How the results depend on the processing

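Lum was higher and Slit2 lower in Slit2th in all 19 alternatives tried for each. The log2 fold change of Lum was 2.04 to 2.47 with other tools, filters and offsets and 1.77 to 2.68 with libraries left out, and it passed the adjusted threshold in DESeq2 (2.22) and without replicate 1 of both groups (1.81). That of Slit2 was -1.91 to -1.58 with libraries left out and passed without replicate 1 of both groups (-1.90). Ogn, Dcn and Prelp kept their direction in all 19. Genes past the adjusted threshold numbered 34 in DESeq2, 7 without the CPM filter and 0 to 378 with libraries left out (1 without Slit2fl/fl replicate 1), and those at an unadjusted p under 0.05 numbered 653 to 2000 with libraries left out, with 839 and 823 without Slit2th replicate 2 and 3. Members at an unadjusted p under 0.05 were 2 of 8 tested in limma-voom, where 1201 of all 12152 genes were called. They were 2 of 9 without the CPM filter (1836 of 17358 genes) and 2 of 5 with a CPM of 1 in all libraries (1098 of 9674). In the newer fit of edgeR, added after the data were seen, they were 2 of 8 (1462 of 12152). Without replicate 1 of both groups they were 3 (2000 of 11473 genes), and without Slit2fl/fl replicate 1 they were 2 (875 of 11772). The other fits with libraries left out called 1 member and 653 to 1648 genes. Beside Lum the members were Ogn, Prelp or Dcn. Nothing particular to the family was read from these counts.

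Bgn turned to 0.081 in limma-voom, 0.26 with the GC correction, and 0.69, 0.15 and 0.53 without Slit2fl/fl replicate 1, Slit2th replicate 2 and replicate 1 of both groups; its range with libraries left out was -0.37 to 0.69. Aspn turned to -0.024 in limma-voom, -0.30 with the GC correction, and -0.29 and -0.40 without Slit2fl/fl replicate 1 and Slit2th replicate 2 (range -0.40 to 0.77). Omd turned to -0.41 without replicate 1 of both groups (range -0.41 to 1.93). The cause was not tested. The Lum to Dcn difference was 1.21 to 2.10 and that of Lum to fibroblast markers 1.58 to 2.72 with libraries left out.

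Replicate numbers are shared by the groups in the labels. The deviations of same-numbered libraries correlated by 0.292, 0.245 and 0.0808 across genes for replicates 1, 2 and 3. Those of different-numbered libraries ran from -0.312 to 0.255, the highest for Slit2fl/fl replicate 2 with Slit2th replicate 3. Replicate 1 of each group correlated negatively with replicates 2 and 3 of the other group. These values do not settle whether the numbers pair the cultures, so the main fit used no block and the block was an alternative. Under the replicate block, 0 genes had an adjusted p under 0.05, and 1615 of 12152 genes had an unadjusted p under 0.05. Of the 8 tested members, 2 (Lum and Ogn) had an unadjusted p under 0.05 in that fit. Lum was at 2.39, Bgn at 0.13 and Aspn at -0.14. With the block and the GC correction, Lum was at 2.13, Bgn at 0.35 and Aspn at -0.55. Depth limits Fmod, Epyc, Omd and Aspn, which had at most 22 counts in a library. With a CPM of 1 required in all libraries Aspn and Omd gave no value, and Omd gave none without replicate 3 of both groups.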

Other observations

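Other proteoglycans have core proteins that are not built of leucine-rich repeats. Of 23 such genes, 18 were tested and 0 had an adjusted p under 0.05, while at an unadjusted p under 0.05 (10.8% of all tested genes) there were 2 higher (Vcan and Gpc3) and 1 lower (Sdc3) in Slit2th. Vcan, the gene of versican, a large hyaluronan-binding proteoglycan, went from 59.7 ± 21.8 to 181 ± 137 CPM (SD, n = 3 each), with no overlap between the groups and a log2 fold change of 1.6 (standard error 0.56, adjusted p = 0.423, edgeR). Its Slit2th level was carried by replicate 1, at 337 CPM against 84.3 and 121 CPM in replicates 2 and 3. Gpc3, which encodes a glypican tethered to the membrane by a lipid anchor and was named after its value was seen, differed by 1.44 on the log2 scale (standard error 0.42, adjusted p = 0.423, edgeR). Sdc3, a membrane-spanning syndecan of nerve tissue, went from 10.1 ± 6.74 to 2.08 ± 0.498 CPM, with a log2 fold change of -2.30 (standard error 0.69, adjusted p = 0.423, edgeR). Its Slit2th level rested on 3, 4 and 3 counts, at or next to the floor of 3 counts. Control replicates 1, 2 and 3 had 54, 6 and 16 counts of Sdc3, or 17.3, 3.88 and 9.08 CPM. The median log2 fold change of the 18 genes was -0.14, and over all tested genes it was -0.05.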
